A study of Mus musculus with 4 samples.

Results

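The comparison described here sets a tumour taken 72 h after doxycycline had been withdrawn against a tumour whose host stayed on the drug. It is the longest interval off the drug in the series and rests on 2 of the 4 arrays, chosen by their treatment label. Both tumours were allografts of iNRAS-475, a mouse melanoma cell line made so that NRAS can be switched on with doxycycline, grown in the dermis of nude mice. The hosts drank water with 2 mg/ml doxycycline for 6 weeks, until tumours measured 200 to 500 mm3. The control tumour was harvested on the drug, and the other hosts were taken off it. The remaining 2 arrays, of tumours 24 h and 48 h off the drug, are given beside the comparison where they show whether a difference was already present. All tumours thus come from 1 cell line, and every host is an animal without a thymus that keeps its macrophages, vessels, connective tissue and muscle. The skin was trimmed off and a piece of about 50 mg was used for RNA. Each group is 1 array, no condition was replicated, and no difference below has a replicate error, so animal, piece of tissue and treatment cannot be told apart. Having so few arrays limits the precision of these values.

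NRAS is a small GTPase that, when bound to GTP, activates the RAF kinases, which activate MEK and then ERK. ERK enters the nucleus and drives transcription of growth genes such as cyclin D1 and of the phosphatases and Sprouty proteins that feed back on the same pathway. In melanoma, activating mutations of NRAS keep this signal on, and loss of the signal takes away transcription of its output genes as well as growth programmes of metabolism and protein synthesis.

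The mouse Nras probe set, which would show the targeted gene only if the transgene's sequence were mouse, read 163 on the drug and 256, 163 and 163 after 24, 48 and 72 h without it, and its other probe sets differed by -0.06 and -0.03 at 72 h on the log2 scale. The labels do not give that sequence, so this value does not check them. Sox10, the transcription factor that defines the melanocyte and Schwann lineage, read 3771 on doxycycline and 3844 at 72 h, with other probe sets at -0.55 and -0.09. Of 10 melanocyte markers 6 passed the filter on low values, and the pigment enzyme genes Tyr and Tyrp1 and the melanosome gene Mlana were among those that did not. Median intensity over all probe sets was between 33.3 and 33.99 on the 4 arrays.

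Of 13525 genes kept by a filter on low values, 305 (2.26%) lay 2-fold or more above the control at 72 h and 217 (1.60%) 2-fold or more below it. In short lists, counts of 0 or 1 gene lie near these shares. A gene was counted as 2-fold different where the difference in log2(intensity + 32), 72 h minus on doxycycline, was at least 1 in size. This scale understates the differences of dim genes, and all differences below are on it. Because each array holds RNA of a whole piece of tissue, fewer cells of a type and less RNA per cell cannot be told apart. Most genes stayed close to the control: 86.2% lay within 0.5, and the median size of a difference was 0.13. In all, 6333 genes were above the control, 5904 below it and 1288 exactly equal to it. Of the higher genes 48 differed by 2 or more and 10 by 3 or more, and of the lower genes 38 and 9. The median intensity of the higher genes was 122 on doxycycline and 450.1 at 72 h, and that of the lower genes was 520 and 161. Other probe sets were present for 195 of the higher genes, and in 75 of these another one was also 2-fold higher, while in 3 another one lay more than 0.2 the other way. Among the lower genes these counts were 138, 61 and 1.

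**Figure D1:**
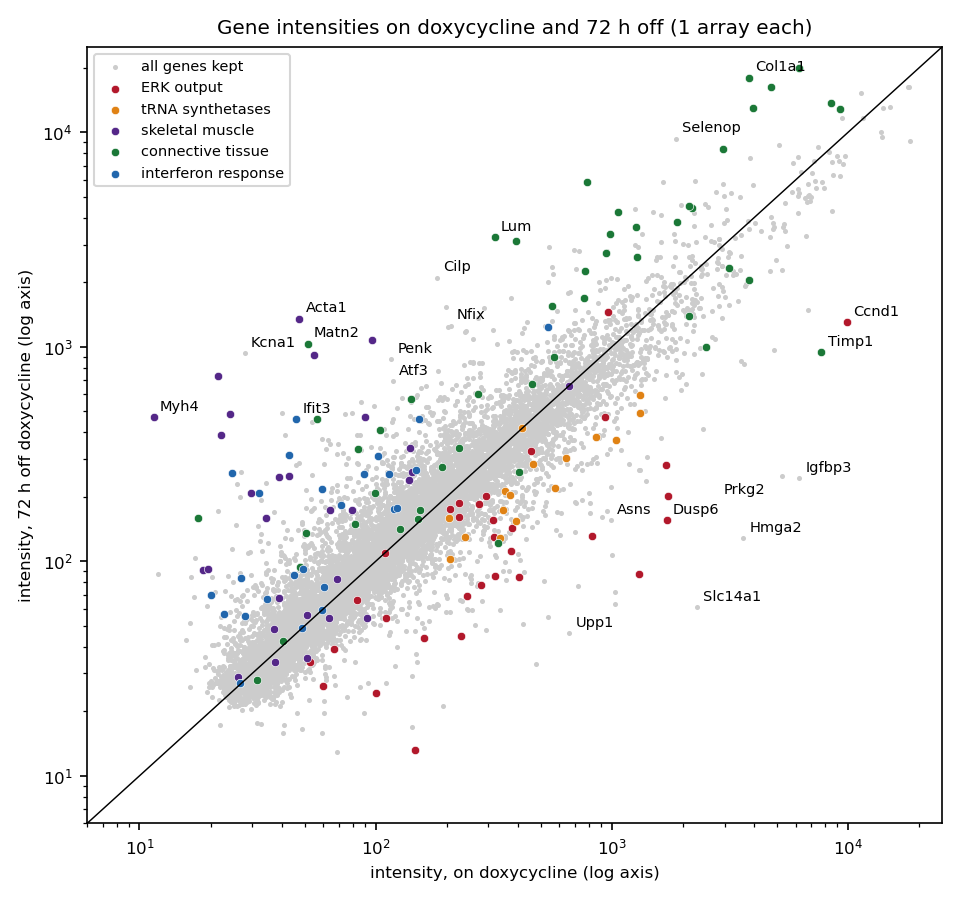
Intensity of each of the 13525 genes on the array on doxycycline (x axis) and the array 72 h off it (y axis), both log axes, 1 point per gene and 1 array per axis, with the members of 5 gene groups coloured and the line of equality drawn. Most ERK output genes and tRNA synthetases lie below the line, among them Dusp6 at 1706 and 156, and most muscle, connective tissue and interferon genes lie above it, among them Acta1 at 47.5 and 1353.

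Sequences upstream of the start site are shown for 3 sets of genes that lay together at one end of the comparison: interferon-induced genes, which were higher, tRNA synthetase and asparagine synthetase genes, which were lower, and fast muscle genes, which were higher. They come from RefSeq promoters on GRCm38.p6, which matched 10820 of the 13525 genes by symbol and hold 250 bases before and 50 after the start site. Stretches shown are from the upstream bases only, written 5′ to 3′ in the direction of the gene. Capitals mark matches to the letters searched for, on either strand, so a match on the opposite strand is read in reverse complement. The first motif is GAAA, any 2 bases and GAAA again (TTTC, 2 bases and TTTC on the opposite strand), the core of the interferon-stimulated response element, which the STAT and IRF factors bind. Ifit3 lies at chr19:34583333-34583456 on the plus strand, Ifit1 at chr19:34640745-34640853 on the plus strand, and Irgm1 at chr11:48871421-48871490 on the minus strand.
Ifit3: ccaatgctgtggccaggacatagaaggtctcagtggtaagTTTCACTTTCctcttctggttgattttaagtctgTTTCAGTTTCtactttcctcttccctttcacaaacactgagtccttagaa
Ifit1: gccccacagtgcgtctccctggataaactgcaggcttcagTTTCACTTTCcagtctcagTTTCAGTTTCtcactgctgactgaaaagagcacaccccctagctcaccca
Irgm1: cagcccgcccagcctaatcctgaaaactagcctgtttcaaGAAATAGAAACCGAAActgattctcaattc
Stretches here and below were picked from 2-fold different genes that hold the letters upstream, so a match in each was fixed in advance. Each of these 3 stretches holds 2 matches, which in Irgm1 overlap. The 2-fold higher genes Oasl2, Ifit2 and Irf7 held no match in the window. In all, 952 of 27025 RefSeq promoters (3.52%) held the letters, 8 of 16 in the interferon list (50.0%), 8 of 11 in the list of interferon-gamma inducible GTPases and related genes (72.7%), 22 of 219 among the 2-fold higher genes (10.0%) and 5 of 164 among the 2-fold lower genes (3.05%).

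The letters TGATGNAA stand for the core of the amino acid response element, bound by ATF4, the transcription factor of amino acid shortage. Asns lies at chr6:7693210-7693272 on the minus strand, Gars at chr6:55037931-55038000 on the plus strand, Aars at chr8:111033690-111033777 on the plus strand and Tars at chr15:11399659-11399713 on the minus strand.
Asns: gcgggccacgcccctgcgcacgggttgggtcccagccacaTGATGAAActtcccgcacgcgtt
Gars: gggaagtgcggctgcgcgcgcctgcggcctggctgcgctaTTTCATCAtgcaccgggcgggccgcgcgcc
Aars: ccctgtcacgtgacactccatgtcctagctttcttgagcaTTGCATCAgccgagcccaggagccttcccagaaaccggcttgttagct
Tars: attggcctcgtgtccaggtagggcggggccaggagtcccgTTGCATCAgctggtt
The 2-fold lower synthetase genes Sars and Mars1 held no match. Such a match was present in 5 of 9 tRNA synthetase promoters (55.6%) and in 5 of 23 of the amino acid response list (21.7%), against 4.07% of all promoters. One of the latter was Atf3, which was higher at 72 h, so the letters were found at genes on either side of the control.

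The letters CAGCTG, which read the same on both strands, are the form of the E-box that MyoD and myogenin prefer. Acta1 lies at chr8:123894951-123895025 on the minus strand, Myh4 at chr11:67237705-67237790 on the plus strand and Atp2a1 at chr7:126463083-126463168 on the minus strand.
Acta1: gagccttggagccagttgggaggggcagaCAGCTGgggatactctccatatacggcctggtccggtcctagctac
Myh4: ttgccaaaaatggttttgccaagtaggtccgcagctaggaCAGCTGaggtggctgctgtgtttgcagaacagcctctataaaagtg
Atp2a1: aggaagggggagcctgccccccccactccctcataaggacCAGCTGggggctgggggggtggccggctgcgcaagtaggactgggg
They were found in 15 of 22 promoters of muscle genes (68.2%), in 6 of 31 of connective tissue genes (19.4%) and in 16.2% of all promoters. The 2-fold higher muscle genes Tnnc2 and Mybpc2 held no match. TGANTCA, the AP-1 site, was found in 3 of 19 promoters of ERK output genes (15.8%) against 7.91% of all and 5.42% of genes kept. It was found in 6 of 164 of the 2-fold lower genes (3.66%) and 12 of 219 of the 2-fold higher genes (5.48%). The interferon list had 5 of 16 and the list of interferon-gamma inducible GTPases and related genes 4 of 11. These letters were thus not particular to ERK output genes. CACGTG, the E-box of MYC, was found in 4 of 25 promoters of ribosome biogenesis genes against 7.09%, and TCACNCCAC, the sterol regulatory element, in 1 of 22 of sterol genes (4.55%) against 1.22%. No motif searched holds another. A match is a description of these letters in this window and does not show that a factor binds there.

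**Figure D2:**
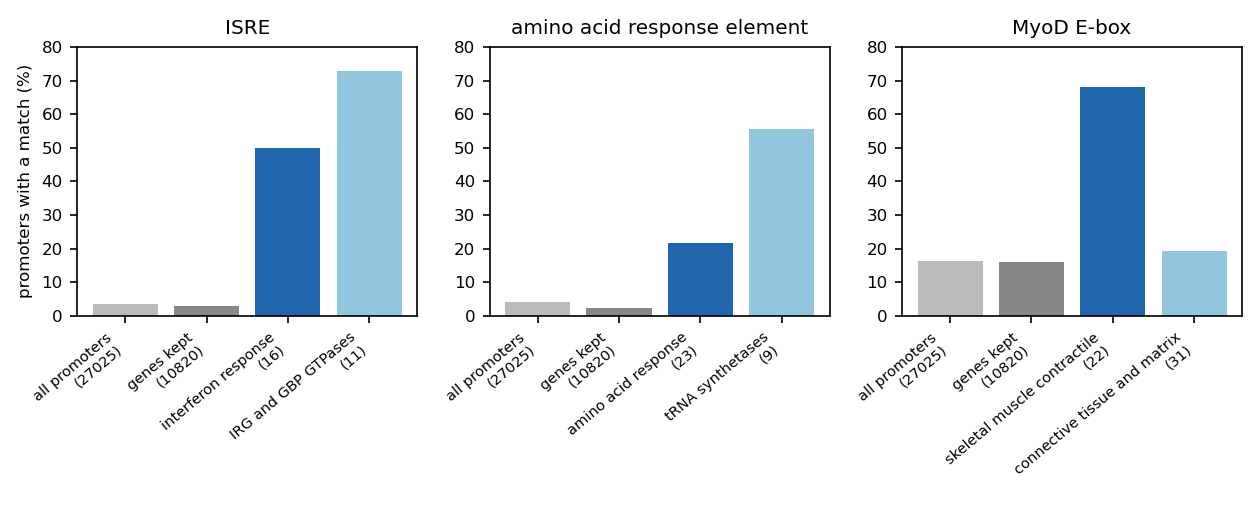
Percentage of upstream sequences with at least 1 match to each of 3 motifs (y axis, from 0), in all RefSeq promoters, in the genes kept and in 2 gene lists per motif, with the number of promoters under each bar. The interferon element stood at 3.52% in all promoters and 50.0% in the interferon list, the amino acid element at 4.07% and 55.6% in tRNA synthetases, and the MyoD E-box at 16.2% and 68.2% in muscle genes.

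Genes that carry or answer the ERK signal were lower as a group. The phosphatase gene Dusp4, whose product removes phosphate from ERK in the nucleus, read 1303 on the drug and 1054, 331 and 86.8 after 24, 48 and 72 h without it. Its cytoplasmic relative Dusp6 read 1706, then 1338, 334 and 156. The 72 h value was the lowest of the 4 for both, and at 24 h both lay within 0.5 of the control. Ligands of the EGF receptor, which are made in response to ERK and signal back to it, were lower too: Hbegf read 1696 on doxycycline and 282 at 72 h and Ereg, which encodes epiregulin, 147 and 13.2. Of 32 genes of the ERK output list that passed the filter, 17 were 2-fold lower and 0 were 2-fold higher, 30 lay below the control and the median was -1.16. With averaging of probe sets that median was -0.71, and with a pseudocount 4 times as large -0.77. For 25 of them 72 h was the lowest of the 4 arrays. The inhibitors of the pathway behaved alike in direction but not in size. Sprouty genes Spry4 and Spry2 differed by -1.77 and -1.50, Spry1 by -0.42, and the SPRED genes Spred2, Spred3 and Spred1 by -1.11, -0.66 and -0.49. Another probe set of Spry4 was at -0.11 and one of Spry2 at -0.08, and those of Spred2 reached 0.00. Among the transcription factors, the PEA3 genes Etv4 and Etv5, long used as readouts of ERK, differed by -1.22 and -1.24, and the AP-1 gene Fosl1 by -1.46. Another Etv4 probe set stood at 0.05. Egr1, an immediate early gene, was at -0.94 and Egr3 at 0.00. The AP-1 partner Jun was the only member above the control, at 963 and 1456. Its difference was 0.58, and another probe set was at 0.98.

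The lowest genes of the whole comparison lay outside that list. Slc14a1, a urea transporter of kidney and red cells, read 2291 on the drug and 2095, 227 and 61.3 after 24, 48 and 72 h without it, the lowest difference of all genes at -4.64. Another probe set was at -3.74. Hmga2 encodes a chromatin protein of embryonic and tumour cells that bends DNA. It read 3591, then 3799.5, 380.2 and 127.8, although its other probe sets spread from -4.23 to -0.65. Of the 11 oncofetal and chromatin growth genes kept, Hmga2 was the only one 2-fold lower, and the list's median was 0.00. Igfbp3, a secreted carrier of insulin-like growth factors, read 6199, then 6099, 884 and 243. The cGMP-dependent kinase gene Prkg2 was the gene whose 72 h value stood furthest below its nearest other array, with a gap of -2.55. It read 5274, then 5328, 1623 and 251. Lgr6, the R-spondin receptor that marks skin stem cells, read 1030.3, then 1412, 246 and 63.0. All 5 lay within 0.5 of the control at 24 h and between the 2 ends at 48 h.

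Several enzymes and secreted proteases also lay near the bottom. The uridine phosphorylase gene Upp1, which feeds uridine ribose into glycolysis, read 659.6 on doxycycline and 46.4 at 72 h, with 75.1 already at 48 h. The kallikrein protease genes Klk10 and Klk8 read 478 and 33.3 and 1389 and 238. Timp1, an inhibitor of matrix metalloproteases, read 7705 and 942. It was the lowest gene of the connective tissue list, most of which was higher. Nt5e, the ecto-enzyme CD73 that makes adenosine outside the cell, read 2434 on the drug and 1834, 1592 and 414 after 24, 48 and 72 h without it, and its other probe sets lay between -2.02 and -0.10. Adamts1, a secreted protease of versican, read 1408, then 1317, 1350.2 and 308, and so was low on the last array alone. Crabp1, a carrier of retinoic acid in the cytoplasm, read 716, then 364, 192 and 76.6, and Nppb, the natriuretic peptide of heart, 419 and 50.7. Kcnn4, a calcium-activated potassium channel, differed by -2.29.

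Genes of amino acid supply and of the charging of tRNAs were lower as a group. Gars, the glycyl-tRNA synthetase gene, read 1038 on the drug and 1004, 465 and 366 after 24, 48 and 72 h without it. Of 16 cytoplasmic tRNA synthetase genes 8 were 2-fold lower, 15 lay below the control and 0 above it, and the median was -0.95. Sars, Wars, Rars, Mars1, Aars, Nars and Tars were at -1.35, -1.27, -1.19, -1.19, -1.11, -1.09 and -1.001. Qars, the glutaminyl enzyme, was the exception, with 418 on both arrays. At 24 h the family's median was 0.03, and at 48 h it was -0.90. Asparagine synthetase, Asns, read 993, then 1228, 314 and 156. The amino acid transporters Slc7a5, which carries leucine, and Slc7a1, which carries arginine, read 435 on doxycycline and 127 at 72 h and 268 and 100.2. Serine synthesis enzymes Phgdh, Psat1 and Psph differed by -1.11, -0.71 and -1.40, and the mitochondrial folate enzymes Shmt2 and Mthfd2 by -1.55 and -1.07. Other probe sets of Shmt2 and Slc7a1 reached -0.17 and -0.01. Their cytoplasmic counterpart Shmt1 was at 0.03. Atf4, which encodes the factor itself, read 3660.2 and 1919.5. In the list of 27, 8 were 2-fold lower and 1 was 2-fold higher. That one was Atf3, a stress-induced factor and a target of ATF4, which read 118, then 115, 264 and 692. Ddit4, an inhibitor of mTORC1, was next highest at 0.99.

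Other genes of protein synthesis lay below the control, mostly by small amounts. Of 43 ribosomal protein genes 39 lay below the control, with 0 at 2-fold and a median of -0.29. For 33 of them the 72 h array was the lowest of the 4. Ribosome biogenesis genes had 30 of 31 below and 0 above, with a median of -0.37. Fbl, the methyltransferase fibrillarin, was the only one 2-fold lower, at 599 on doxycycline and 216 at 72 h. Mitochondrial ribosomal proteins, 73 genes, had a median of -0.14, with 57 below. Translation initiation factors, 46 genes, had a median of -0.26, and 2 were 2-fold lower. These were Eif4ebp1, the inhibitor of cap binding that mTORC1 phosphorylates, at -1.37, and Eif2s2 at -1.15. The cap-binding protein Eif4e was at -0.95. Other probe sets of Eif4ebp1, Eif2s2 and Eif4e reached -0.19, -0.01 and 0.02. Proteasome genes other than the immunoproteasome had a median of -0.29, with 30 of 34 below, whereas the immunoproteasome genes Psmb8, Psmb9 and Psmb10 were at 0.88, 0.56 and 0.58. Most members of these families lay on one side, and their medians were smaller in size than that of the ERK list.

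Genes of glucose uptake and of sterol synthesis were among the lower ones. The glucose transporter Slc2a3 read 798 on the drug and 579.9, 371 and 209 after 24, 48 and 72 h without it and hexokinase Hk1 985 on doxycycline and 333 at 72 h. The transporter Slc2a1, the lactate carrier Slc16a1 and lactate dehydrogenase Ldha differed by -1.17, -1.14 and -1.05. Other probe sets of Slc2a3 reached -0.04, and another of Slc16a1 was at 0.00. Of 23 glycolysis genes 5 were 2-fold lower and 0 higher, 19 lay below, and the median was -0.54. Pfkm, the phosphofructokinase of muscle, was the highest, at 0.77, on an array where muscle genes were high, and the part of muscle RNA in it was not tested. In the sterol pathway Msmo1 read 263 and 50.4, Fdps 256 and 59.3, Sqle 246 and 59.0 and Fdft1 199 and 57.9, each an enzyme on the way to cholesterol. The list of 28 had 5 genes 2-fold lower, the fifth being the fatty acid elongase Elovl6 at -1.25, and 0 higher. Second probe sets of Msmo1 and Fdps were at 0.00 and -0.35, and others of Fdft1 and Elovl6 reached 0.00 and -0.08, so these calls rest on the probe set used. Fatty acid synthase, Fasn, stood at 0.06, and Srebf1, a factor that drives fatty acid genes, at 0.61. Oxidative phosphorylation genes had a median of -0.16, with 0 of 26 past 2-fold. Hypoxia genes had a median of -0.18 over 18 genes, of which Slc2a1 was the only one 2-fold lower. In lists of this size both counts are near the share over all genes.

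Neuronal filaments and calcium-binding S100 proteins were also far down. Neurofilament light and medium chains, Nefl and Nefm, which are made in neurons and in some melanomas, read 1028 on the drug and 821, 208 and 71.6 after 24, 48 and 72 h without it and 537, then 231, 65.9 and 55.0. Nes, the filament protein nestin of progenitor cells, read 3637 on doxycycline and 831 at 72 h, but its other probe sets were at -0.50 and -0.32. Vim, the filament of mesenchymal cells, was at -0.47. S100a3 read 1003 and 106, and S100a16, S100a10 and S100a6 differed by -1.50, -1.31 and -1.19, so 4 of 10 S100 genes were 2-fold lower. S100b, a marker of Schwann and melanocytic cells, was the highest of the family, at 0.62. Targets of TGF-beta and BMP signals had 4 of 14 genes 2-fold lower: Id1, an inhibitor of bHLH factors, read 805 and 167, Id4 was at -1.48, the inhibitory SMAD Smad7 at -1.35 and Ccn2, connective tissue growth factor, at -1.31. Another Smad7 probe set was at -0.36. The ligand genes Tgfb1 and Bmp2 were at -1.41 and -1.16, and Tgfb2 at 1.33, though another Tgfb1 probe set was at 0.13. Integrin genes had 3 of 25 2-fold lower, the fibronectin receptor chain Itga5 (-1.50), the laminin receptor chain Itga3 (-1.41) and Itga8 (-1.28). Other Itga5 probe sets reached 0.00.

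**Figure D3:**
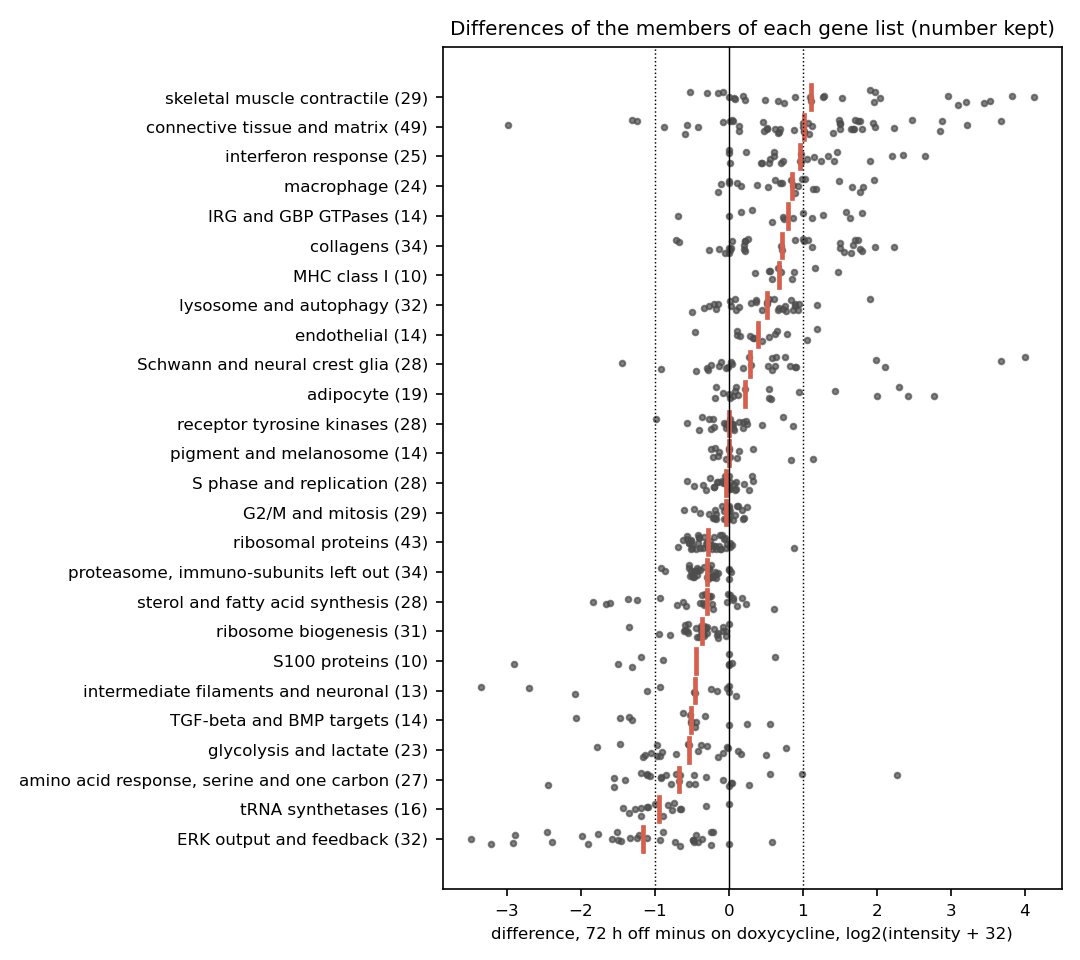
Difference of each member of 26 gene lists and families, 72 h minus on doxycycline on the scale log2(intensity + 32) (x axis), 1 point per gene, with the number of genes kept beside each name, the list's median as a red bar and dotted lines at a 2-fold difference. Medians run from -1.16 for ERK output genes to 1.11 for muscle genes, and those of the cell cycle lists lie near 0.

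Of 28 genes of S phase and 29 of G2 and mitosis, 0 were past 2-fold in either direction, which in lists of this size is near the share over all genes. Their medians were -0.03 and -0.04. The S phase median was 0.47 at 24 h, and against the 24 h array the 72 h median was -0.46. Mki67, a marker of cycling cells, read 135 on doxycycline and 159 at 72 h, and the mitotic ubiquitin enzyme Ube2c, the lowest of its list, 104 and 57.8. Cyclin D1, Ccnd1, which links ERK to the cycle, was lower at 9864 and 1305. The CDK inhibitor Cdkn2b was also lower, at 699 and 189, while Cdkn1c, another inhibitor, was at 1.08. Genes held down by growth signals and raised by FOXO factors had 4 of 29 2-fold higher, a median of 0.16, and 1 lower. The higher ones were Txnip, which limits glucose uptake (376 and 1698), the PI3K inhibitor Pik3ip1 (103 and 302), the stress protein Sesn1 (111 and 296) and Foxo3 itself (185 and 415). Other probe sets of Sesn1 and Foxo3 were as low as 0.10 and 0.06. The lower one was the factor Klf4 (149 and 54.1). Of 16 BCL2 family genes 1 was 2-fold higher, which in a list of this size is near the share over all genes. It was Bcl2l11, which encodes the death protein BIM and read 367 on the drug and 543, 909.8 and 1062 after 24, 48 and 72 h without it. Its other probe sets lay between 0.05 and 0.999. Bmf, a death protein of the same class, was at 0.77 and the survival gene Bcl2l1 at -0.92, with other probe sets between -1.43 and -0.09. None of 28 receptor tyrosine kinase genes was past 2-fold, which in a list of this size is near the share over all genes. Axl came nearest among the lower, at 3138 and 1575 with another probe set at 0.02, and Pdgfrb was the highest, at 357 and 679.6.

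Skeletal muscle genes were higher, and for 24 of 29 the 72 h array was the highest of the 4. The skeletal actin gene Acta1 read 47.5 on the drug and 284, 45.6 and 1353 after 24, 48 and 72 h without it. Fast troponin C, Tnnc2, read 21.5, then 55.9, 16.9 and 729, and the fast myosin heavy chain Myh4 11.5, then 9.88, 11.5 and 470.4, with another Myh4 probe set at 0.34. The calcium pump of fast fibres, Atp2a1, read 54.9, then 76.8, 48.3 and 916, and the fast light chain Mylpf 24.2, then 44.4, 24.3 and 486. Creatine kinase, Ckm, read 96.9, then 96.9, 92.4 and 1074, with its other probe set at 0.09. Each lay within 0.2 of the control at 48 h, and of these 6 Acta1 was the furthest above the control at 24 h. Of 29 contractile genes kept, 16 were 2-fold higher and 0 lower, and the median was 1.11 against -0.09 at 48 h. That 72 h median was 0.58 with a pseudocount 4 times as large, 0.54 with the mean of the 48 and 72 h arrays and 1.72 with a filter at the 60th percentile. Members at or below the control included the slow fibre genes Tnni1 and Myh7 (-0.53 and -0.30), the oxygen carrier Mb (-0.15) and the tropomyosin Tpm2 (0.00). Above it, the slow fibre gene Mybpc1 was at 0.07, and the fast fibre genes Mybpc2, Pvalb, Actn3, Tnnt3 and Tnni2 were at 2.96, 1.91, 1.53, 1.28 and 0.67. Among the muscle regulatory factors, Myod1 read 24.0 on doxycycline and 27.2 at 72 h and Myog 46.0 and 36.2. Both are dim, Myod1 close to the filter at 24.8, so no direction is read from them. Of that list 0 of 7 genes were past 2-fold, near the share over all genes in a list of this size. Its median was 0.04, and 0.42 with a filter at the 60th percentile. The summed intensity of 9 skeletal muscle markers kept, of 10 listed, was 456 on the drug and 755, 397 and 4656 after 24, 48 and 72 h off it. The share of muscle in each piece was not tested.

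Fat cell genes were higher on the same array, in fewer members. Fabp4, the fatty acid binding protein of fat cells, read 203 on the drug and 70.8, 323 and 1234 after 24, 48 and 72 h without it, with other probe sets between 0.02 and 2.29. Adipoq, the hormone adiponectin made by fat cells, read 64.0, then 15.6, 58.9 and 352. The carbonic anhydrase Car3, high in fat and in slow muscle, read 199, then 113, 260.0 and 1541, and lipoprotein lipase, Lpl, 86.9 on doxycycline and 555 at 72 h. Other Car3 probe sets lay between 0.04 and 2.13. Plin4, a lipid droplet coat, was at 1.44. These 5 were the only genes of 19 that were 2-fold higher, and the list's median was 0.22. Pparg, the master factor of fat cells, read 29.6 and 35.0, and the lipases Lipe and Pnpla2 were at 0.08 and 0.22. Fat markers summed to 1917, 1482, 1925 and 4410.0 on the arrays in order of time, over 5 of 10 markers kept. Of these markers 3 were 2-fold higher at 72 h (Fabp4, Adipoq and Car3) and the other 2 lay below the control. The part of fat tissue in the other differences was not tested.

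**Figure D4:**
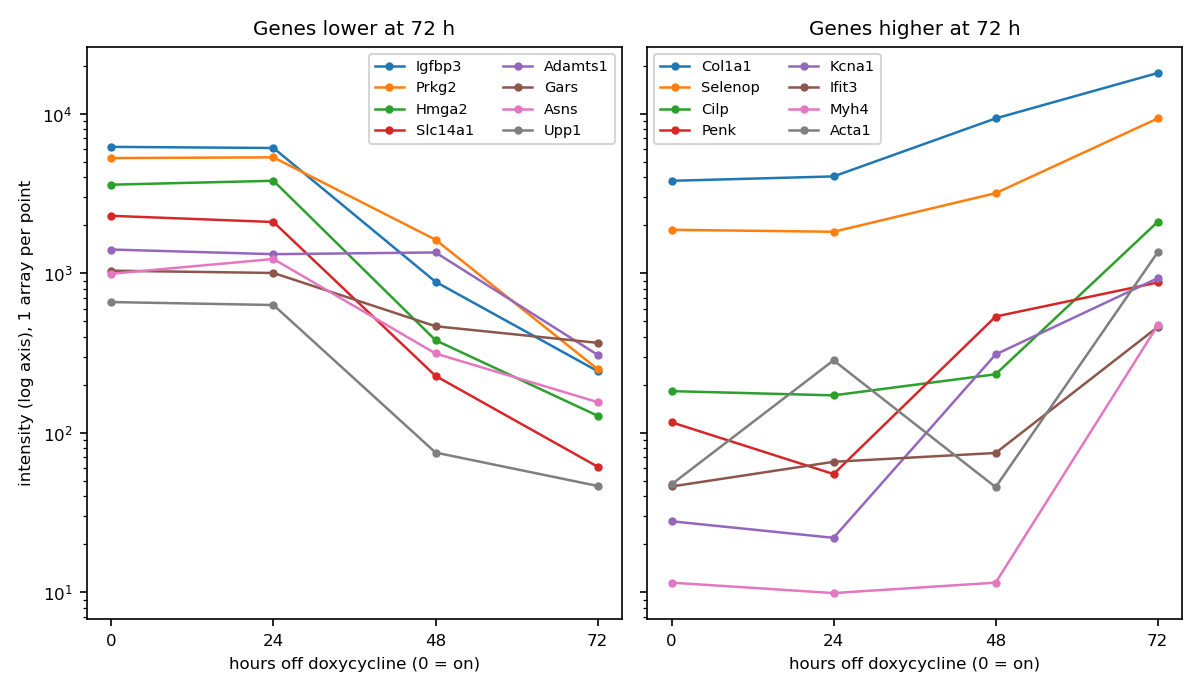
Intensity of 8 genes that were lower (left) and 8 that were higher (right) at 72 h on all 4 arrays, by hours off doxycycline (x axis, 0 is on the drug), log y axis, 1 array per point, lines joining separate tumours. Igfbp3 and Hmga2 are already low at 48 h, Adamts1 is low at 72 h only, Col1a1 and Selenop are above the control at 48 and 72 h, and Myh4 reads 11.5 at 48 h and 470.4 at 72 h.

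Matrix and fibroblast genes were also higher, and unlike the muscle genes many were part of the way there at 48 h. Of 49 genes kept, 27 were 2-fold higher and 3 lower, with a median of 0.33 at 48 h and 1.02 at 72 h. The small leucine-rich proteoglycans, which sit on collagen fibrils, included Lum, which read 319 on the drug and 162, 939 and 3252 after 24, 48 and 72 h without it. Dcn read 394, then 226, 726 and 3108, with another probe set at 0.17. Aspn read 56.4, then 148, 561 and 459.9, and Ogn 17.6 on doxycycline and 159 at 72 h. Aspn was higher at 48 h than at 72 h, unlike Lum and Dcn. Postn, which encodes periostin, read 781, then 754, 1871 and 5879, and Matn2, matrilin 2, 51.5, then 49.5, 461 and 1036. Cilp, a secreted matrix protein of cartilage, was not in the list and read 182, then 172, 233 and 2100.0. Of 34 collagen genes 15 were 2-fold higher and 0 lower. The fibril chains Col1a1, Col1a2 and Col3a1 differed by 2.24, 1.77 and 1.68, the basement membrane chains Col4a1 and Col4a2 by 1.50 and 1.74, and the beaded filament chain Col6a3 by 1.98. Cartilage collagens stood apart from them, with Col2a1 at 0.03 and Col11a1 at -0.72. The matrix proteases Mmp2 and Mmp14 were at 1.09 and 1.21. The 3 lower genes were Timp1, Ccn2 and Ccn1, at -2.99, -1.31 and -1.24, with other Ccn1 probe sets up to -0.07. At 48 h these 3 were at -2.23, 0.04 and 0.42. The fibroblast receptor gene Pdgfra was also below the control, at 404 and 262, while 10 fibroblast markers kept summed to 17068, 17444, 35947 and 63959 on the arrays in order of time. Whether the piece held more fibroblasts was not tested.

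Genes induced by interferons were higher, and most of the type I list had their highest value at 72 h. Ifit3, which binds foreign RNA caps with its partners, read 46.0 on the drug and 65.7, 74.7 and 460.2 after 24, 48 and 72 h without it, and Ifit1 24.6, then 27.1, 37.0 and 257. Rtp4, Oasl2, Ifit2, Oas1a and Parp9 differed by 2.20, 1.91, 1.46, 1.42 and 1.34. Another Rtp4 probe set was at 0.05. Of 25 genes 10 were 2-fold higher, 23 lay above the control, and for the same number 72 h was the highest of the 4 arrays. Irf7 and Irf9, factors of the same response, were at 1.06 and 0.97. The chemokine genes Cxcl9 and Cxcl10, made mostly in answer to interferon gamma, were at 0.31 and 0.17. The list of interferon-gamma inducible GTPases and related genes also holds these 2 chemokine genes, Irf1 and Socs1. Of its 14 genes 5 were 2-fold higher and 0 lower. Their median was 0.80, against 1.16 at 24 h, and 2 were highest at 72 h. Against the 24 h array the 72 h median was -0.26. Irgm1 read 50.7, then 264, 178 and 216, Iigp1 25.7, then 345, 81.5 and 148 and Gbp6 32.7, then 182, 88.5 and 194. Other probe sets of Iigp1 and Gbp6 were at 0.39 and 0.22. Irgm1 and Iigp1 were highest at 24 h, so against the 24 h array both were lower at 72 h. Antigen-presenting genes were higher as well: of 10 class I genes 2 were 2-fold higher, Tapbp (1.47) and H2-K1 (1.16), and of 7 class II genes 2, Cd74 (1.25) and H2-Aa (1.03). Cd74 and H2-Aa read 2510.4 and 2179.6 at 24 h against 943 and 535 at 72 h. Another Tapbp probe set was at 0.34, and others of H2-Aa and H2-K1 were as low as 0.04 and 0.07. H2-K1 is near-identical in parts to other class I genes, and its values are uncertain for that reason.

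Macrophage genes were higher beside them. Lyz2, the lysozyme of myeloid cells, read 1641 on the drug and 3511, 2923 and 5858 after 24, 48 and 72 h without it, and Csf1r, the receptor that macrophages need to survive, 708, then 1103, 837 and 2318. Cybb, the oxidase subunit of phagocytes, and Mpeg1, a pore-forming protein of theirs, were at 1.97 and 1.78. Of 24 genes 8 were 2-fold higher and 0 lower. Neutrophil, lymphoid and mast cell lists, with 7, 8 and 7 genes kept, had 0 past 2-fold. In lists this short that is near the share over all genes, 2.26% higher and 1.60% lower. Endothelial genes had 2 of 14, the cadherin Cdh5 (1.19) and the receptor partner Ramp2 (1.06), with 13 above the control and another Cdh5 probe set at 0.00. The 10 macrophage markers summed to 5338, 9272, 7491 and 13917, and their part in the interferon and lysosome differences was not tested. Lysosome genes had 26 of 32 above the control, a median of 0.52, and 2 at 2-fold: Scarb2, the receptor that delivers glucocerebrosidase, read 561 on doxycycline and 2186 at 72 h, and the membrane protein Lamp2 559 and 1321. The enzyme genes Hexa, Gaa and Tpp1 were at 0.95, 0.89 and 0.87, and Sqstm1, an autophagy receptor, was the lowest, at -0.50.

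Glial and neural crest genes included the second highest gene of the whole comparison. The potassium channel gene Kcna1, found on the fibres that Schwann cells wrap, read 27.9 on the drug and 21.9, 309.8 and 931 after 24, 48 and 72 h without it. Its other probe sets lay between -0.11 and 2.35. Cdh19, a cadherin of Schwann cell precursors, read 691, then 878, 2753 and 2834, and Sntb1, a syntrophin, 98.3, then 175, 593 and 532, with other Sntb1 probe sets between -0.05 and 0.94. Of 28 genes of the list 4 were 2-fold higher, the other being Matn2, and 1 was lower: Egr2, a factor of myelinating Schwann cells and itself an immediate early gene, read 270.4 on doxycycline and 79.3 at 72 h. The neurotrophin receptor gene Ngfr read 2228 and 4198, the adhesion gene L1cam 462 and 887 and the factor Foxd3 140.4 and 236. Other Ngfr probe sets lay between -0.08 and 0.23, and another of L1cam at 0.24. The sodium channel Scn7a of glia, not in that list, was at 2.00. In the pigment list Pmel, a fibril protein of melanosomes, was the 1 gene of 14 that was 2-fold higher, at 73.1, then 49.8, 103 and 199.7, and Mitf, the master factor of pigment cells, read 50.3, then 56.5, 93.1 and 115 with another probe set at 0.05. Dct and Mc1r were at -0.21 and -0.24.

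Other genes among the 20 highest came from no common list. Rcan2, an inhibitor of calcineurin, read 39.96 on the drug and 26.5, 164 and 492 after 24, 48 and 72 h without it, with another probe set at 0.25. Penk, the precursor of enkephalin peptides, read 116, then 55.1, 535 and 875, and Efhd1, a calcium sensor of mitochondria, 41.5, then 31.0, 214 and 389.5. All 3 were already above the control at 48 h. Plagl1, an imprinted zinc finger gene, read 53.6, then 63.1, 63.0 and 448, while its other probe sets were at -0.02 and 0.01, so this difference rests on 1 probe set. Outside those 20, Nfix, a factor of muscle and neural stem cells, and Selenop, the selenium carrier of plasma, were chosen after their values had been seen. Nfix read 208, then 315, 608 and 1257 and Selenop 1872, then 1820.0, 3177 and 9341. Other Nfix probe sets lay between 0.00 and 2.14. Rgs2, Rgs5 and Rgs10, which switch off G proteins, were at 1.86, 1.76 and 1.48, with other Rgs5 probe sets between -0.08 and 0.64, making 3 of 13 RGS genes 2-fold higher and 0 lower.

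The tumours at 48 and 72 h were each compared with the same control tumour, so their differences are set side by side and not counted as independent. At 48 h, 0.739% of all genes were 2-fold higher and 1.04% lower. Of the 305 higher genes at 72 h, 71 were past 2-fold at 48 h, 117 lay between 0.5 and 1, 115 under 0.5 in size and 2 lay 0.5 or more the other way. Of the 217 lower genes the counts were 116, 79, 22 and 0. The median difference of the higher genes stood at 1.37 for the 72 h array against 0.62 for the 48 h and 0.11 for the 24 h array. For the lower genes these medians were -1.35, -1.05 and -0.06. The median of the lower genes at 48 h was thus nearer to its 72 h value than that of the higher genes. At 24 h, 0.266% of all genes were 2-fold higher and 0.0665% lower. Against the 24 h array in place of the control, 205 of the higher and 177 of the lower genes were 2-fold different in the same direction. That comparison reuses the 72 h array on which the genes were chosen. At 24 h, 233 of the higher and 195 of the lower genes lay within 0.5 of the control. Much of this overlap was therefore fixed in advance.

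The 72 h tumour stood apart from all 3 other tumours at 100 genes on the high side and 22 on the low side, by 2-fold or more from the nearest of them. On the high side the 10 with the widest gap were Myh4 (3.53), Atp2a1 (3.12), Tnnc2 (3.11), Ckm (3.10), Cilp (3.01), Mybpc2 (2.92), Mylpf (2.76), Car3 (2.43), Plagl1 (2.33) and Ifit3 (2.21). Muscle genes were 6 of these 10. On the low side they were Prkg2 (-2.55), Adamts1 (-1.99), Nt5e (-1.87), Dlk1 (-1.82), Igfbp3 (-1.73), Dusp4 (-1.61), Lgr6 (-1.55), Slc14a1 (-1.47), Ier3 (-1.47) and Lmo4 (-1.40). Dlk1, an imprinted Notch-like protein, read 6791 on the drug and 7294, 5332 and 1490.3 after 24, 48 and 72 h without it, with another probe set at -0.28. Lmo4, a transcriptional cofactor of melanocytes and epithelia, read 814, then 949, 1011 and 289. For Adamts1, Dlk1 and Lmo4 the 48 h array lay within 0.5 of the control, and their low values were on the last array only.

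**Figure D5:**
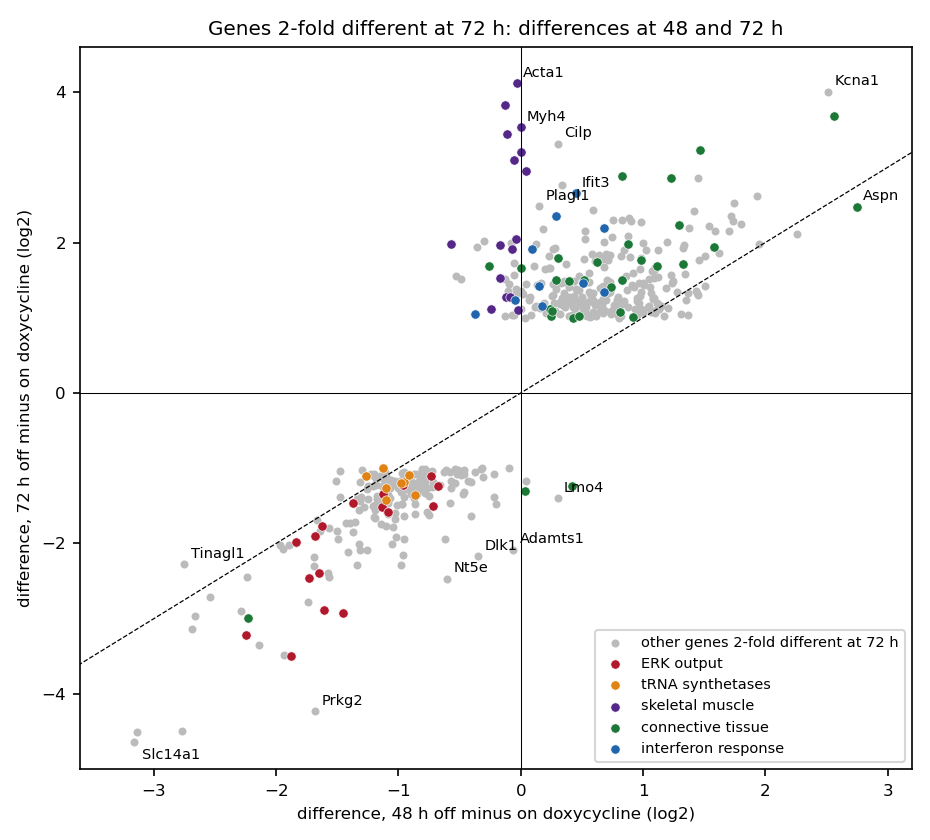
Difference from the control at 48 h (x axis) and at 72 h (y axis), log2(intensity + 32), for the 522 genes 2-fold different at 72 h, with 5 gene groups coloured and a dashed line where both are equal. Both axes share the control array. Most muscle genes lie near the vertical line at 0, with a median over the whole list of -0.09 at 48 h, whereas the lower genes have medians of -1.05 at 48 h and -1.35 at 72 h.

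Muscle, fat and connective tissue lists held 48 of the 305 higher genes and 3 of the 217 lower ones, and macrophage, interferon, MHC and complement lists held 29 and 0. Over all lists 98 of the higher and 62 of the lower genes were members, so 207 and 155 were in none. Leaving the muscle, fat and connective tissue lists out of the table left 257 higher and 214 lower genes.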

How the data were processed

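Values came from the table the authors deposited for Affymetrix mouse arrays of 4 tumours, 1 per group, which holds 1 linear intensity per probe set and array. MAS5 and RMA are the tools given in the submitters' processing notes; their role and version, and how arrays were scaled, are not given in the sources used here. Many intensities are exactly equal between arrays, which shrinks differences, and the reason is not given there either. Symbols came from GEO's platform annotation: 34945 of 45037 probe sets had 1. For each gene the probe set with the highest mean log level was used, and genes below the 40th percentile of that mean (intensity 24.8) were left out. A pseudocount of 32 was added before log2, no further scaling was applied, and groups were taken from the treatment label. With 1 array a group no test was made and no p-value computed. A difference of 1 or more was called 2-fold. The counting was tested on simulated data.

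The comparison and its 44 lists and 35 symbol families were chosen with earlier results of these data known. The text names the 20 highest and 20 lowest genes, up to 5 members per list, members 2-fold against their list and the 10 widest gaps either way; other genes were chosen after their values had been seen. RefSeq promoters (GRCm38.p6) were matched by symbol and searched on both strands. Alternatives were scaling, the filter, the probe set rule, pseudocounts, the reference array and leaving out host tissue lists. Python 3.11.15, pandas 2.3.3, NumPy 2.4.6 and matplotlib 3.10.9 were used.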

Additional observations from a re-analysis of the deposited data

Results flagged for a closer look

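Of 10092 probe sets without a single gene name, which no comparison above used, 4306 passed the filter on low values. Of these 55 (1.28%) were 2-fold higher and 25 (0.58%) were 2-fold lower at 72 h than on doxycycline. Both shares lie below those over the genes kept, 2.26% and 1.60%. These probe sets are given as counts because they carry either no gene name or more than 1.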

How the results depend on the processing

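No paired analysis was possible because each group holds 1 array and no replicate numbers are given. The counts of 305 higher and 217 lower genes were 193 and 139 with averaging of probe sets, 167 and 115 with a pseudocount 4 times as large, and 100 and 140 with the 48 h array in place of the 72 h array. With the mean of the 48 and 72 h arrays 169 were higher, and without a pseudocount 496. The 48 h substitution, the version without a pseudocount and a minimum intensity were chosen after seeing the data. Under every other setting tried (quantile normalization, median centring, other filters, probe sets of shared sequence left out, a pseudocount of 8, the 24 h array as the reference, host tissue lists left out) both counts stayed within 1.5 times. The share of calls that were higher, 58.4%, was 49.3% with the mean of the 48 and 72 h arrays and 41.7% with the 48 h array alone. Quantile normalization shared 293 of the higher and 207 of the lower genes, and averaging probe sets 183 and 136. Median centring lowered all differences by 0.05, which puts genes just above the control, among them Shmt1, Col2a1 and Sox10, below it. Of the named genes called 2-fold different, 6 lay on the other side with the 24 h array as the reference. Named genes short of 2-fold were left out of this count. The 6 were Cd74 (-1.38), H2-Aa (-1.96), H2-K1 (-0.087), Iigp1 (-1.07), Irgm1 (-0.25) and Irgm2 (-0.26). Their cause was not tested. List medians moved too: against the 24 h array glycolysis genes stood at -0.31, fat genes at 0.45, oncofetal genes at -0.36, MHC class I genes at -0.05 and class II genes at -0.74. The fat median was 0.55 with a filter at the 60th percentile, and the connective tissue median was 0.68 with the mean of the 48 and 72 h arrays. The interferon median of 0.96 was 0.54 against the 24 h array, 0.44 with that mean, 0.45 with the larger pseudocount and 0.70 with averaging of probe sets. For macrophage genes the median of 0.85 was 0.40 against the 24 h array, 0.51 with that mean and 0.65 with the larger pseudocount. Muscle genes had a lower median than connective tissue genes without a filter (0.76 against 1.02), with averaging of probe sets, with quantile normalization, with the larger pseudocount and with the mean of the 48 and 72 h arrays. A probe set near the filter carries little signal above background, so no direction is read from small differences there.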

Other observations

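All genes here were chosen after their values had been seen, and the values are given without explanation. Abca1, the pump that loads cholesterol onto apolipoprotein, read 272 on the drug and 289, 758 and 1362 after 24, 48 and 72 h without it, with other probe sets between 1.02 and 1.83. Pltp, a phospholipid transfer protein, read 584 on doxycycline and 1474 at 72 h, and Mylip, which marks the LDL receptor for breakdown, 135 and 326. Abcg1, a related pump, differed by 0.69. Iron genes also lay on opposite sides of the control: Slc40a1, the iron exporter ferroportin, read 26.8, then 38.1, 76.5 and 262, and Tfrc, the transferrin receptor that takes iron up, 199, then 248, 86.3 and 69.5. Other Tfrc probe sets were at -0.12 and 0.13, so that call rests on 1 probe set.

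In the hedgehog pathway the ligand Dhh, which Schwann cells make, read 336 on the drug and 220.2, 62.4 and 59.0 after 24, 48 and 72 h without it, and its receptor Ptch1 253, then 264, 175 and 83.0. Smo, the signal transducer, read 164 on doxycycline and 364 at 72 h and the effector Gli1 92.6 and 86.7. Other probe sets lay between -0.58 and 0.00 for Ptch1 and between 0.02 and 0.38 for Smo. The chemokine Cxcl12 and its receptor Cxcr4 differed by 1.08 and 1.07, with other Cxcl12 probe sets between -0.05 and 0.81, and the scavenging receptor Ackr3 by -1.24. The retinoic acid carriers differed in sign, Crabp1 at -2.78 and Crabp2 at 1.23, and Aldh1a3, which makes retinoic acid, was at -1.94. Suppressors of cytokine signalling Socs2 and Socs5 read 515 and 80.7 and 1316 and 265, though other Socs2 probe sets reached 0.03.

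Imprinted genes, of which 1 parental copy is silent, included members at both ends. Mest read 108 on the drug and 258, 193 and 415 after 24, 48 and 72 h without it and Phlda2 148, then 92.3, 40.7 and 36.9. The noncoding Meg3 read 557, then 485, 448 and 2359.7, but its 10 other probe sets spread from -0.27 to 2.72, and Igf2 was at 0.00. Igf1, a growth factor of muscle, fat and connective tissue, read 123, then 115, 150.1 and 519, highest on the array on which genes of those tissues were also high. Their part in it was not tested. Of 16 circadian clock genes 1 was 2-fold higher and 1 lower, against 2.26% and 1.60% of all genes, with a median of 0.16. Per3, Tef, Nr1d2 and Dbp were at 1.09, 0.88, 0.88 and 0.81, and Bhlhe40, a repressor of the clock, at -1.16. Other Per3 probe sets lay between -0.12 and 0.36. The hour of harvest is not given in the labels. Of 218 zinc finger Zfp genes 0 were past 2-fold in either direction, against 2.26% higher and 1.60% lower of all genes. In this family 131 lay above the control, 59 below it and 28 were equal to it, with a median of 0.04.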
